A study of Mus musculus with 6 samples.

Results

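The genes described here are 10 markers of sinusoidal and vascular endothelium, the cells that line blood vessels: Pecam1, Cdh5, Kdr, Flt1, Tek, Tie1, Emcn, Eng, Stab2 and Ptprb. They were taken by gene symbol from a table of 54532 genes, and all 10 were found in it. RNA-seq had been run on freshly isolated bone marrow cells from mouse femurs. The 3 unloaded samples came from WT mice under hindlimb unloading for 4 weeks, in which the hind limbs bear no weight and bone is lost, and the 3 control samples from WT mice with no treatment. The labels give no strain, age or sex, and do not say whether each sample was a separate mouse, so each p-value reflects only how far these samples spread, which may be technical. The marrow was not sorted, so every value is a level in mixed marrow, where fewer endothelial cells and less RNA per endothelial cell cannot be told apart.

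Bone marrow is drained by sinusoids, wide thin-walled vessels through which blood cells leave, and fed by arterioles and capillaries. Endothelial growth and rest are set largely by a pair of receptor systems. VEGF binds the tyrosine kinases encoded by Kdr (VEGFR2) and Flt1 (VEGFR1) and drives sprouting, while angiopoietin-1 binds the kinase TIE2, encoded by Tek, and keeps vessels quiescent. Cell contacts are held by VE-cadherin (Cdh5) and PECAM1. In bone, capillaries that stain strongly for PECAM1 and endomucin (Emcn) are known to lie next to bone-forming cells. Several of these genes are also expressed by blood cells: Pecam1 by platelets and myeloid cells, Eng by some progenitors and macrophages, and Tek and Emcn by hematopoietic stem cells.

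Library depth ran from 15850986 to 16543465 counts in the unloaded samples and from 16727836 to 17775506 in the controls. The unloaded 1 library stood apart from the other 5: a principal component analysis placed it at -51.3 on component 1 (34.8% of variance), with the others between 7.37 and 13.7. Its mitochondrially encoded share of counts was 0.439%, against 1.05% to 1.27% in the others. Beside fold changes and medians that moved by over 1.5 times without that library, the value without it is given.

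The promoter sequences of Tek, Flt1 and Eng are shown because they are the members whose RefSeq start site coincides with the gene start in the deposited table, and because they span the range from a receptor with few counts to the member with the highest level. Each window holds the 250 bases before the start site in RefSeq's GRCm38.p6, read 5′ to 3′ on the gene's strand. Capitals mark AGGAAG or its reverse complement CTTCCT, a core bound by ETS factors such as ERG and FLI1, which are known drivers of endothelial genes.
Tek, chr4:94739039-94739288, plus strand: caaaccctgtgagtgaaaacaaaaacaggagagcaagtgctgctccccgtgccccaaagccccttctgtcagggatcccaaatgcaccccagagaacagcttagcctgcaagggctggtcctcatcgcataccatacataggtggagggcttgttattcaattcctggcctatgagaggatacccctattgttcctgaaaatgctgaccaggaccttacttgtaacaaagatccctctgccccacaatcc
Flt1, chr5:147726012-147726261, minus strand: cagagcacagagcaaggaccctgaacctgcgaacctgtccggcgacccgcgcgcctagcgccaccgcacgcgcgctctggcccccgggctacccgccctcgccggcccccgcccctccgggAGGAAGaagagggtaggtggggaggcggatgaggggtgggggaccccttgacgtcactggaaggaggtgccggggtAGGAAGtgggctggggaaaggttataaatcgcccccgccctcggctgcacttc
Eng, chr2:32646345-32646594, plus strand: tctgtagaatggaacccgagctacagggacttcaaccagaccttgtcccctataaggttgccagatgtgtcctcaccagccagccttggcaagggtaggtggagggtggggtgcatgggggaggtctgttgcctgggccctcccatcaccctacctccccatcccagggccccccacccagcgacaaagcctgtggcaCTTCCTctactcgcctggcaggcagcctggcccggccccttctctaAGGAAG
The Flt1 and Eng windows held 2 matches each and the Tek window held 0. RefSeq promoters were found for 7 of the 10 members, and 5 of those 7 windows held the ETS letters on either strand, where 29.5% of the 32851 windows of the same length in the table did. The GATA core AGATAA or its reverse complement TTATCT was in 0 of the 7, and in 9.99% of all windows. A match is a run of letters and was not tested as a bound site.

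Per length, a pair of members was far more abundant than the rest. Eng, a co-receptor for TGF-beta family ligands, was at 27.3 ± 5.79 TPM in unloaded marrow and 30.4 ± 1.67 TPM in controls, and Pecam1 was at 23.9 ± 5.61 and 24.99 ± 3.17 TPM (SD, n = 3 each). Eng exceeded Pecam1 in 6 of 6 libraries, but their ranges overlapped. The third, Tie1, had a mean of 3.61 TPM over all libraries, so Pecam1 was 6.76 times as high, with no overlap between the pair. Cdh5 followed at 2.42 TPM, Stab2 at 1.15 and Flt1 at 1.05 TPM. Stab2 and Flt1 were not in a fixed order, since Stab2 was the higher in 3 of 6 libraries. Tek (0.484 TPM), Kdr (0.289 TPM), Emcn (0.133 TPM) and Ptprb (0.0611 TPM) were lowest, and among these 4 each range overlapped the next. Emcn and Ptprb had at most 13 reads in any library. Of 24 other endothelial genes 14 were high enough to test, and Cd93 had the most counts, 1688 to 2681 per library. Among those too low to test, Cldn5 had 1 to 6 counts per library and Nos3 0 to 2. The arterial gene Sox17, also untested, had 0 to 2.

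**Figure D1:**
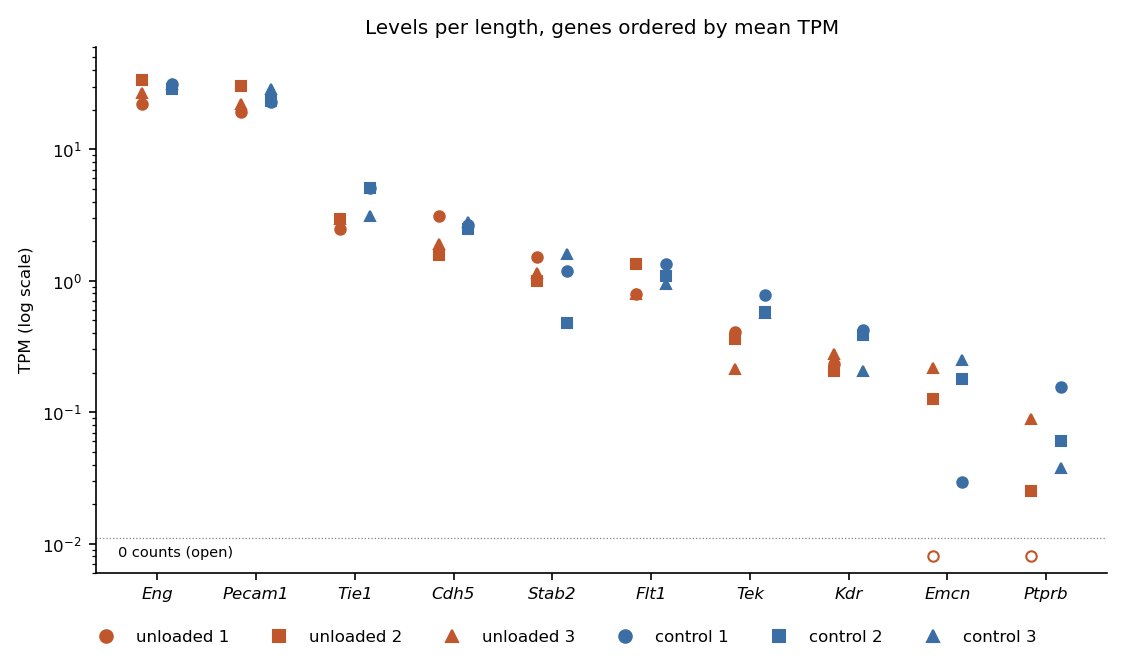
Level of each endothelial gene in TPM, on a log axis, with 1 point per library, unloaded libraries left of controls, and genes ordered by mean TPM. Eng and Pecam1 lie far above the rest, and open points at the bottom mark the 2 genes with 0 counts in unloaded 1, which have no place on a log axis.

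No member passed edgeR's quasi-likelihood test after unloading. Of 15015 genes tested 0 were called at a Benjamini-Hochberg adjusted p under 0.05, or 0% of all genes, and 0 of the 8 members tested were called. At an unadjusted p under 0.05 there were 2 members, Tie1 and Tek, both lower in unloaded marrow, where 5.85% of all genes passed at that level, 3.18% lower and 2.67% higher. DESeq2 called 0.302% of the genes it gave an adjusted p, and limma-voom called 0%. Neither tool called a member, and DESeq2 gave no adjusted p for Tek and Kdr. The fold changes were negative in 7 of the 8 members tested, with a median log2 fold change of -0.25, where 48.8% of all genes were negative and the median over all genes was 0.0054. Without unloaded 1 they were negative in 7 of 8, with a median of -0.30, where 49.5% of all genes were negative. These were not the same 7, since Pecam1 turned to 0.048 and Stab2 to -0.0037. Emcn and Ptprb were too low to test.

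**Figure D2:**
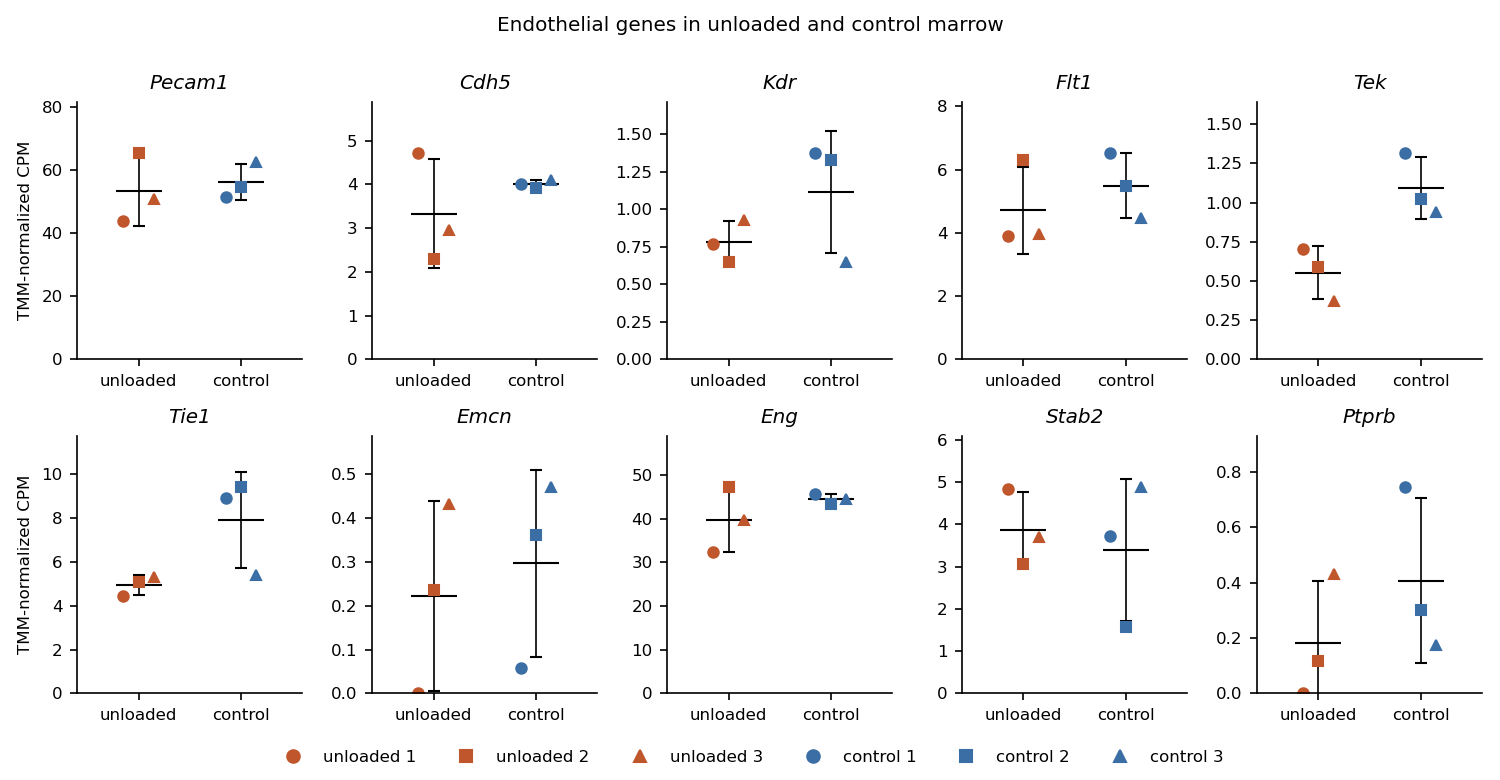
TMM-normalized CPM of each of the 10 genes, with 1 point per library, unloaded on the left of each panel, and bars for mean and SD of 3 libraries (cut at 0). Tek and Tie1 are the panels in which no unloaded point reaches a control point, and for Tie1 the gap is small.

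The TIE receptors had the lowest fold changes among the members tested. Tie1 (ENSMUSG00000033191, mm10 chromosome 4, 118471191 to 118490061, minus strand) encodes an orphan receptor that pairs with TIE2 and modulates its signal. It was at 4.46, 5.07 and 5.31 CPM in unloaded 1 to 3, against 8.92, 9.40 and 5.40 CPM in control 1 to 3. The unloaded values lay close together and below all controls, but control 3 was only just above them. The log2 fold change was -0.68 ± 0.25 (SE), with a 95% interval from -1.22 to -0.13, and the edgeR adjusted p was 0.802 (unadjusted p = 0.0194). With unloaded 1 left out the log2 fold change was -0.61, and over 14 alternatives it ran from -0.89 to -0.54 with adjusted p from 0.355 to 0.999.

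Tek (ENSMUSG00000006386, chromosome 4, 94739289 to 94874976, plus strand), the gene of TIE2, was at 0.701, 0.589 and 0.370 CPM in unloaded 1 to 3, against 1.32, 1.02 and 0.940 CPM in control 1 to 3. All 3 unloaded values lay below all 3 controls. These levels rest on 11, 10 and 6 reads in the unloaded libraries and 23, 17 and 16 in the controls. The exact Poisson 95% interval of the lowest unloaded count ran from 2.20 to 13.1 and that of the lowest control count from 9.15 to 26.0, which cover counting error only, since the reads carry no molecular identifiers. The log2 fold change was -0.98 ± 0.43 (SE; 95% interval -1.92 to -0.03; edgeR adjusted p = 0.828, unadjusted p = 0.0435). It was -1.17 without unloaded 1 and ran from -1.17 to -0.76 over 13 alternatives, with adjusted p from 0.525 to 0.999. Tie1 and Tek were the 2 members whose groups did not overlap, both lower, where 6.4% of all genes were separated that way, and the separation was the same under TMM, RLE and upper-quartile scaling and with no scaling factor.

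Ptprb (ENSMUSG00000020154, chromosome 10, 116275523 to 116389535, plus strand) encodes VE-PTP, the phosphatase that dampens TIE2 signaling and stabilizes VE-cadherin. It had 0, 2 and 7 reads in unloaded 1 to 3, against 13, 5 and 3 in control 1 to 3. The groups overlapped. The 0 in unloaded 1 allows up to 0.191 CPM, which takes 3 counts as the limit. Mean levels were 0.183 ± 0.223 CPM in unloaded marrow and 0.407 ± 0.298 CPM in controls (SD, n = 3; two-sided exact permutation p = 0.4, where 3 against 3 cannot go below 0.1).

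The tested ligand genes of this system had fold changes of opposite sign, and neither was called. Angpt2, the gene of the context-dependent TIE2 antagonist angiopoietin-2, was at 1.27, 1.65 and 1.54 CPM in unloaded 1 to 3, against 0.801, 0.904 and 0.822 CPM in control 1 to 3. All unloaded values lay above all controls, as they did for 5.46% of all genes. The log2 fold change was 0.82 ± 0.35 (SE; edgeR adjusted p = 0.816), and it was 0.92 without unloaded 1. It rests on 14 to 28 reads per library, and DESeq2 gave it no adjusted p. Angpt1, the agonist gene, was at 9.09 ± 0.854 CPM in unloaded marrow and 10.5 ± 1.86 CPM in controls (SD, n = 3; log2 -0.21 ± 0.19, adjusted p = 0.919), with overlapping groups. Angpt4 had 0 to 9 counts per library and was not tested.

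**Figure D3:**
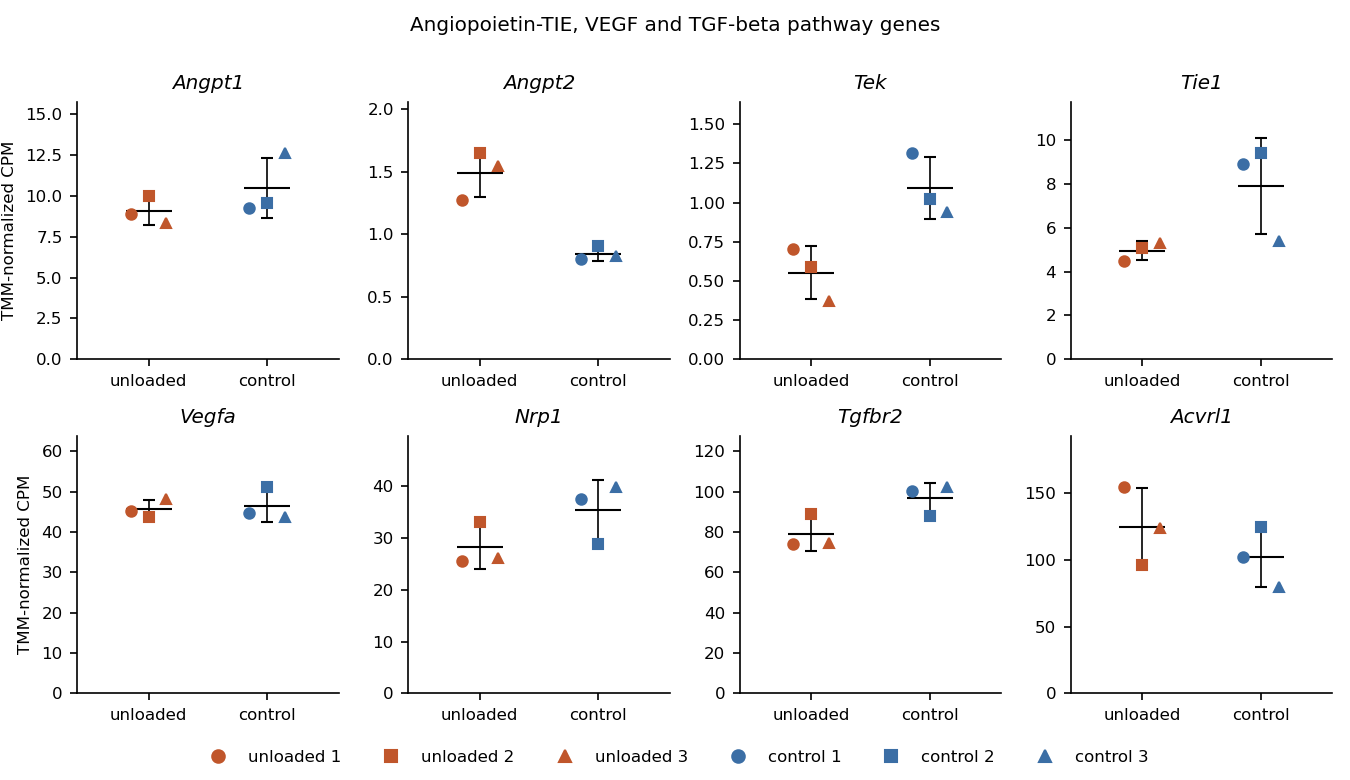
TMM-normalized CPM of angiopoietin, TIE, VEGF and TGF-beta pathway genes, with 1 point per library, unloaded on the left, and bars for mean and SD of 3 libraries. Angpt2 lies higher and Tek and Tie1 lower in unloaded libraries without overlap, while Angpt1, Vegfa, Nrp1, Tgfbr2 and Acvrl1 overlap, and none of the 8 passed the test over all genes.

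The VEGF receptors overlapped between the groups. Kdr (ENSMUSG00000062960, chromosome 5, 75932827 to 75978458, minus strand), the main signaling receptor, was at 0.765, 0.648 and 0.926 CPM in unloaded 1 to 3, against 1.37, 1.33 and 0.646 CPM in control 1 to 3. Control 1 and control 2 were above every unloaded library, while control 3 was level with unloaded 2, the lowest unloaded library, at 11 reads each. The log2 fold change of -0.51 ± 0.43 (SE; 95% interval -1.46 to 0.43; edgeR adjusted p = 0.904) rests on 38 reads in all 3 unloaded libraries and 57 in the controls. It was -0.79 without control 3 and -0.33 without control 1.

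Flt1 (ENSMUSG00000029648, chromosome 5, 147561604 to 147726011, minus strand), a high-affinity receptor that can act as a decoy for VEGF and that monocytes also express, was at 3.89, 6.30 and 3.95 CPM in unloaded 1 to 3, against 6.52, 5.49 and 4.46 CPM in control 1 to 3. Unloaded 2 lay among the controls and the other unloaded libraries below them. Its log2 fold change was -0.22 ± 0.26 (SE; 95% interval -0.80 to 0.36; edgeR adjusted p = 0.934), -0.10 without unloaded 1 and -0.49 without unloaded 2. The counts are per gene, so soluble and membrane forms of the receptor were not separated.

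The VEGF ligand genes tested had log2 fold changes within their standard errors. Vegfa was at 45.7 ± 2.31 CPM in unloaded marrow and 46.5 ± 3.996 CPM in controls (SD, n = 3), a log2 difference of -0.02 ± 0.11. Vegfb had -0.12 ± 0.13 and Vegfc -0.23 ± 0.52. Without unloaded 1 the log2 differences were -0.014 for Vegfa, -0.075 for Vegfb and -0.023 for Vegfc. Vegfd, with 1 to 9 counts, and Pgf, with 0 to 4, were not tested. The co-receptor gene Nrp1 was at 28.3 ± 4.22 CPM in unloaded marrow and 35.3 ± 5.83 CPM in controls (log2 -0.32 ± 0.16; edgeR adjusted p = 0.873), and Nrp2 had -0.11 ± 0.19, or -0.028 without unloaded 1.

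Among the junction genes, Cdh5 (ENSMUSG00000031871, chromosome 8, 104101625 to 104144511, plus strand) was at 4.72, 2.30 and 2.96 CPM in unloaded 1 to 3, against 4.003, 3.92 and 4.11 CPM in control 1 to 3. The controls were nearly the same, while unloaded 1 was the highest of all libraries and the other 2 unloaded libraries were below every control. The log2 fold change was -0.27 ± 0.29 (SE; 95% interval -0.91 to 0.37; edgeR adjusted p = 0.927). It was -0.61 without unloaded 1 and -0.07 without unloaded 2, so single libraries set its size, and it did not pass in either case.

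Pecam1 (ENSMUSG00000020717, chromosome 11, 106654217 to 106750628, minus strand) was at 43.7, 65.4 and 50.7 CPM in unloaded 1 to 3, against 51.4, 54.7 and 62.5 CPM in control 1 to 3. The unloaded libraries spanned the controls, with unloaded 2 the highest and unloaded 1 the lowest of all. With 686 to 1110 reads per library, its log2 fold change of -0.08 ± 0.15 (SE) had a 95% interval from -0.41 to 0.26 (edgeR adjusted p = 0.960). The sign depended on single libraries, at 0.048 without unloaded 1 and 0.0075 without control 3.

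Emcn (ENSMUSG00000054690, chromosome 3, 137341067 to 137432185, plus strand), which encodes a sialomucin of capillary and sinusoidal endothelium, had 0, 4 and 7 reads in unloaded 1 to 3, against 1, 6 and 8 in control 1 to 3. Both groups held 1 library near 0. Levels were 0.223 ± 0.216 CPM in unloaded marrow and 0.296 ± 0.214 CPM in controls (SD, n = 3; two-sided exact permutation p = 0.7), so a difference was not detectable at this depth.

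Eng (ENSMUSG00000026814, chromosome 2, 32646595 to 32682669, plus strand) encodes endoglin, which presents BMP9 and BMP10 to the receptor ALK1. It was at 32.3, 47.2 and 39.7 CPM in unloaded 1 to 3, against 45.6, 43.5 and 44.5 CPM in control 1 to 3. The controls lay within a narrow band, with unloaded 2 above it and the others below. The log2 fold change was -0.16 ± 0.14 (SE; 95% interval -0.47 to 0.14; edgeR adjusted p = 0.909), and it was -0.03 without unloaded 1. Acvrl1, the gene of ALK1, was at 125 ± 29.0 CPM in unloaded marrow and 102 ± 22.6 CPM in controls (log2 0.29 ± 0.19, or 0.11 without unloaded 1; adjusted p = 0.896). Tgfbr2, the type II TGF-beta receptor gene, was at 79.1 ± 8.40 and 96.6 ± 7.80 CPM in unloaded and control marrow (log2 -0.29 ± 0.11; adjusted p = 0.804), and the ligand gene Tgfb1 had -0.18 ± 0.11. The ligand genes Gdf2 and Bmp10 had 0 counts in every library. Other marrow cells also express Acvrl1, Tgfbr2 and Tgfb1, so these levels do not belong to endothelium alone.

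Stab2 (ENSMUSG00000035459, chromosome 10, 86841198 to 87008025, minus strand), a scavenger receptor for hyaluronan and the member most typical of sinusoids, was at 4.84, 3.06 and 3.70 CPM in unloaded 1 to 3, against 3.72, 1.57 and 4.87 CPM in control 1 to 3. The unloaded values lay within the range of the controls. Control 2 had 26 reads, with an exact Poisson 95% interval from 17.0 to 38.1, and control 3 had 83, with an interval from 66.1 to 103, so these 2 libraries differed by more than counting error. Stab2 was the 1 member tested with a positive log2 fold change, 0.19 ± 0.37 (SE; 95% interval -0.64 to 1.02; edgeR adjusted p = 0.960). It was -0.15 without control 2 and -0.0037 without unloaded 1, so its sign also rests on single libraries.

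**Figure D4:**
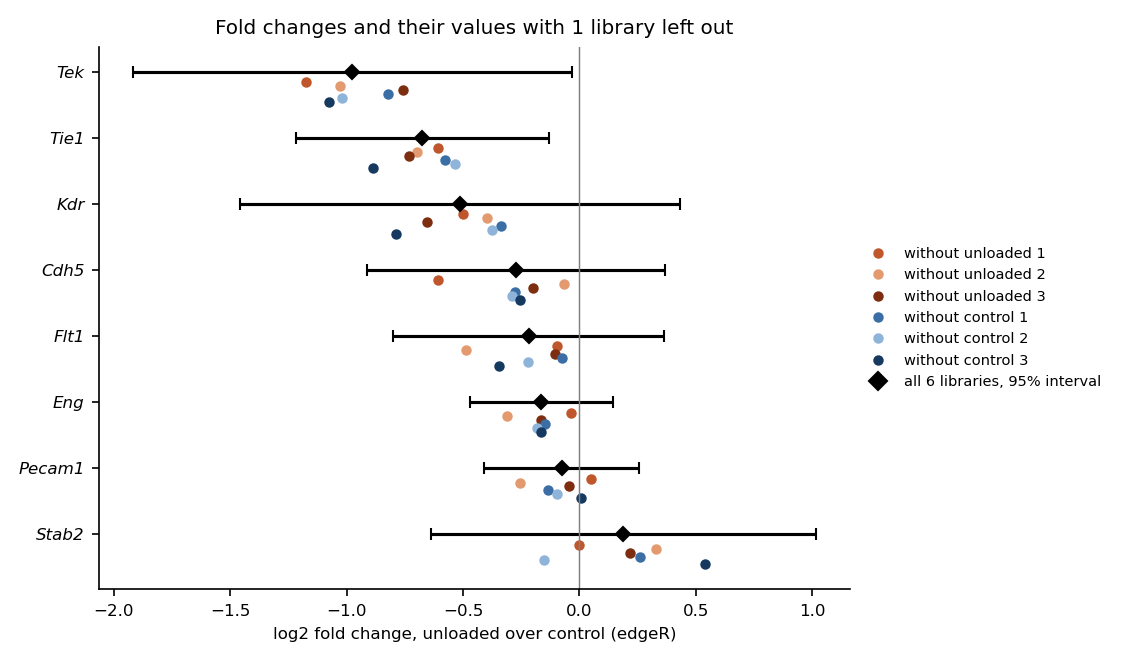
Log2 fold change, unloaded over control, of the 8 members tested (diamonds with 95% intervals from edgeR) and the same value with each library left out in turn (dots under each diamond). All dots of Tek, Tie1, Kdr, Cdh5, Flt1 and Eng are below 0, those of Pecam1 and Stab2 lie on both sides, and the intervals shown are not adjusted for the number of genes tested.

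The members did not all follow one order across libraries, though how far they varied together was not measured. Pecam1 and Eng were both lowest in unloaded 1 and highest in unloaded 2. Unloaded 1 held the lowest value of 6 members, including 2 at 0 reads, and the highest value of 1, Cdh5. Control 1 held the highest value of 4 members. Summed over the 10 members the level was 112 ± 17.96 CPM in unloaded marrow and 124 ± 3.38 CPM in controls (SD, n = 3), and the ranges of 95.4 to 131 and 122 to 128 CPM overlapped. Pecam1 and Eng made up most of that sum. Without them, a choice made after the values were seen, the sum was 18.6 ± 0.684 CPM in unloaded marrow and 23.7 ± 2.80 CPM in controls (SD, n = 3), with ranges of 18.1 to 19.4 and 21.1 to 26.7 CPM. Tie1 had the largest difference in CPM of the genes left, at means of 4.95 in unloaded marrow and 7.91 in controls. The gap in this sum thus repeats that of Tie1 in large part. Cdh5, Kdr, Flt1, Tek, Emcn and Ptprb also had lower means in unloaded marrow, and Stab2 had a higher one. Of these only Tek had groups that did not overlap, and whether the genes share a decrease was not tested. The members were chosen with earlier results known, so no test was made on either sum.

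Other endothelial genes had a median fold change closer to 0. Of 24 such genes 14 were tested and 13 of these were below 0, where 48.8% of all genes were. The median was -0.09, with 0 called by edgeR or DESeq2 and 1, Vwf, at an unadjusted edgeR p under 0.05. The count below 0 depended on unloaded 1. Without that library Adgrl4 (0.11), Rasip1 (0.13), Calcrl (0.076), Cd34 (0.053) and S1pr1 (0.135) turned positive and Podxl stayed positive, while the median was again -0.09. Vwf, the gene of von Willebrand factor, which megakaryocytes also express, was at 15.6, 15.4 and 10.5 CPM in unloaded 1 to 3, against 23.3, 17.4 and 17.97 CPM in control 1 to 3 (log2 -0.50 ± 0.19, SE; edgeR adjusted p = 0.804). Its groups did not overlap. Esam, which encodes a junction adhesion protein, had -0.56 ± 0.41.

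A list of 11 genes of sinusoidal scavenging and adhesion had 10 tested members, 8 of them negative, with a median of -0.09 and 0 at an unadjusted p under 0.05. Plvap, the gene of the diaphragm protein of fenestrated endothelium, was at 2.38 ± 0.878 CPM in unloaded marrow and 3.58 ± 0.553 CPM in controls (SD, n = 3; log2 -0.59 ± 0.31, adjusted p = 0.883). Stab1, the paralog of Stab2 that macrophages also express, had -0.23 ± 0.28, and -0.46 without unloaded 1, where Stab2 had -0.0037. In a list of 15 arterial and Notch genes 10 were tested, 4 negative and 6 positive; the median was 0.13, and 0.0022 when unloaded 1 was left out. Its lowest p belonged to the Notch ligand gene Dll4, at 1.07 ± 0.151 CPM in unloaded marrow and 0.527 ± 0.225 CPM in controls (log2 1.00 ± 0.45; edgeR adjusted p = 0.847), on 5 to 20 reads per library, with no overlap between the groups. The 15 ligands and receptor partners had 10 tested members, 8 negative, with a median of -0.15, or -0.05 without unloaded 1.

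Of 11 junction partners 10 were tested, 6 negative; the median was -0.04, and -0.07 when unloaded 1 was left out. Jup, the gene of plakoglobin, which links cadherins to the cytoskeleton, had -0.44 ± 0.16 (SE; edgeR adjusted p = 0.801), and its groups did not overlap. Of 16 transcription factor genes shared between endothelium and blood 13 were tested, 11 negative, with a median of -0.14, or -0.06 without unloaded 1. Klf4 was at 74.9 ± 23.9 CPM in unloaded marrow and 114 ± 22.02 CPM in controls (log2 -0.61 ± 0.22, or -0.38 without unloaded 1; adjusted p = 0.801). Fli1, an ETS factor of endothelium and blood, had -0.17 ± 0.11, or -0.087 without unloaded 1.

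Lists of other marrow cells were read beside the members. Megakaryocyte and platelet genes, a lineage that also expresses Pecam1 and Vwf, summed to 139 to 172 CPM in unloaded marrow and 191 to 207 CPM in controls. Of its 11 tested genes 10 were negative, where 48.8% of all genes were. At an unadjusted edgeR p under 0.05 there were 6, all lower, where 3.18% of all genes passed in that direction. In 5 the unloaded values lay below all controls, as they did for 6.4% of all genes. No gene of this list was called by edgeR, and DESeq2 called 1, the platelet chemokine gene Ppbp. The median of this list was -0.63 and, leaving out unloaded 1, -0.43. None of its 12 genes was at 0 in every library. Stem and progenitor genes, a population that also expresses Tek and Emcn, summed to 159 to 220 CPM in unloaded marrow and 205 to 218 CPM in controls, with 7 of 9 tested genes negative. The median of this list was -0.18 and, leaving out unloaded 1, -0.05. Monocyte and macrophage genes summed to 1449 to 1758 CPM and 1639 to 1737 CPM, in unloaded and control marrow, with a median of 0.05, or -0.09 without unloaded 1. The part of these cells in the members' values was not tested.

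The cells around vessels and other marrow lineages were read in the same way. Marrow stroma genes summed to 45.5 to 53.8 CPM in unloaded marrow and 31.1 to 58.3 CPM in controls, with 4 of 9 tested genes negative and a median of 0.09. Mural cell genes, which mark smooth muscle and pericytes, summed to 13.9 to 17.0 CPM in unloaded marrow and 13.9 to 19.8 CPM in controls, with 2 of 3 tested genes negative and a median of -0.13, or -0.20 without unloaded 1. Osteoblast genes spread most relative to their own level, from 41.6 to 129 CPM in unloaded marrow and 67.3 to 232 CPM in controls, with 5 of 5 negative and a median of -0.46, or -0.22 without unloaded 1. Erythroid genes summed to 4426 to 5683 CPM in unloaded marrow and 3509 to 4214 CPM in controls, with 4 of 6 positive and a median of 0.04, or 0.23 without unloaded 1. That sum was separated through the globin genes Hbb-bs (log2 0.55) and Hba-a1 (0.47), while Klf1, Epor and Tfrc lay between -0.049 and 0.011 with overlapping groups. Neutrophil genes summed to 31442 to 38925 CPM in unloaded marrow and 33776 to 38994 CPM in controls, with 4 of 5 negative and a median of -0.07, or -0.019 without unloaded 1. B cell genes summed to 382 to 568 CPM in unloaded marrow and 509 to 598 CPM in controls, with 5 of 5 negative and a median of -0.20, or -0.34 without unloaded 1. DESeq2 also called 1 gene each in the monocyte and macrophage (Cx3cr1), erythroid (Hbb-bs) and B cell (Vpreb3) lists.

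**Figure D5:**
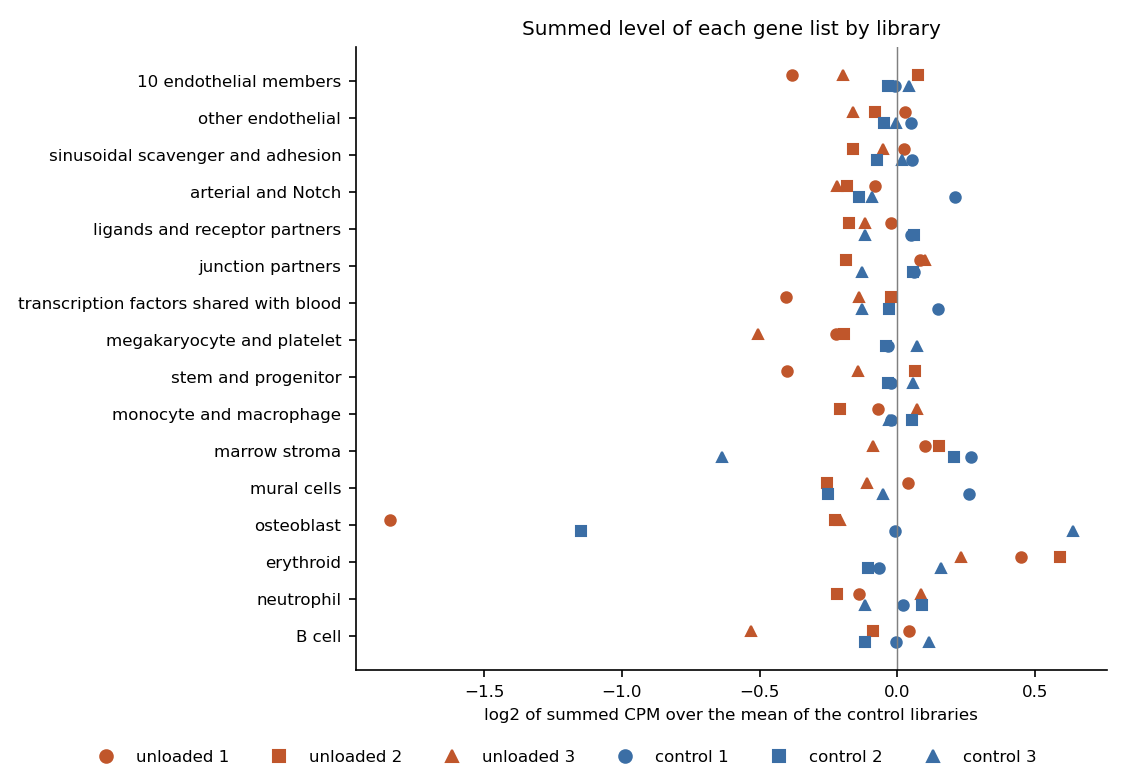
Log2 of the summed CPM of each gene list in each library over the mean of the 3 control libraries, with unloaded points above control points in each row. The 10 endothelial members overlap between groups, the megakaryocyte and platelet list is lower and the erythroid list, through its globin genes, higher in unloaded libraries without overlap, and the osteoblast list spreads widely in both groups.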

How the data were processed

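The table deposited by the authors held raw read counts per gene for 6 libraries, not normalized (whole numbers, with totals that differ between libraries); gene lengths, in bases, were deposited in the same table. Per the submitters' processing notes, CASAVA, HISAT2 2.0.5, featureCounts 1.5.0-p3 and mm10 were used. The sources used here do not state the annotation release, the strand setting or how multi-mapping reads were counted. Libraries were prepared with the NEBNext Ultra kit, per the labels' protocols.

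Genes were kept with edgeR 4.0.16's filterByExpr (15015 genes; 8 of 10 members, each reaching the level of 10 reads in at least 5 libraries), scaled by TMM, and compared by glmQLFit and glmQLFTest in R 4.3.3, with Benjamini-Hochberg adjustment over all genes and a threshold of 0.05. Fold changes are unloaded over control. CPM used TMM factors, and TPM used deposited gene lengths. Alternatives used DESeq2 1.42.0 and limma 3.58.1 (voom), and the closing section gives their effect. Members and gene lists were chosen with earlier results of these data known, and 16 lists were described. Named genes were the members, all tested ligands and partners, the 3 genes of smallest p in each other list, Vwf and Stab1; of these, genes of other cell types and some vessel genes are given only within their list's counts. Cldn5, Nos3, Sox17, Cd93, Adgrl4, Rasip1, Calcrl, Cd34, S1pr1, Lyve1, Klf1, Epor and Tfrc were named outside this rule, after their values were seen. The fit was tested on simulated data. Chi-square per degree of freedom was 6.64 to 34.3 over pairs of libraries, so each library counted once.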

Additional observations from a re-analysis of the deposited data

How the results depend on the processing

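The number of genes called over the whole table was 0 by edgeR, and was also 0 under RLE and upper-quartile scaling, limma-voom, a filter of 1 CPM in 3 libraries and removal of hemoglobin and the 20 most abundant genes. DESeq2 called 40 and edgeR with no low-count filter 183, and with 1 library left out the count ran from 0 to 5, the 5 being without unloaded 1. No member was called under any of these alternatives. The members' median log2 fold change of -0.25 ran from -0.35 to -0.18 with 1 library left out, the lowest being without unloaded 2. The summed level of the members, unloaded minus control, was -12.8 CPM, from -22.6 to -4.71 CPM with 1 library left out and -5.11 CPM without Pecam1 and Eng. Of 110 alternative values of single members, 4 turned the direction, each with 1 library left out: Pecam1 ran from -0.25 to 0.048 and Stab2 from -0.15 to 0.54. The cause was not tested. The labels do not pair the replicate numbers, and deviations of same-numbered libraries correlated at 0.031, -0.063 and 0.019. With the replicate number as a block 1 gene was called, which was not a member. Tek, Kdr, Emcn and Ptprb rest on at most 24 reads per library, which limits them most.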

Other observations

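Some vessel-related genes varied widely among the unloaded libraries. Podxl, the gene of podocalyxin, was at 0.191, 0.471 and 3.77 CPM in unloaded 1 to 3, against 0.686, 0.482 and 0.881 CPM in control 1 to 3, so its log2 fold change of 1.10 ± 0.84 (SE; edgeR adjusted p = 0.901) came from unloaded 3. F11r, which encodes the junction protein JAM-A, was at 4.91, 0.766 and 2.84 CPM in unloaded 1 to 3, against 0.743, 1.09 and 0.940 CPM in control 1 to 3 (log2 1.61 ± 0.56, or 0.96 without unloaded 1; edgeR adjusted p = 0.801). Lyve1, a hyaluronan receptor gene of lymphatic endothelium and some macrophages, was at 1.53, 2.53 and 4.32 CPM in unloaded 1 to 3, against 4.63, 3.86 and 3.17 CPM in control 1 to 3, with a log2 fold change of -0.47 ± 0.36 (edgeR adjusted p = 0.899) that was -0.18 without unloaded 1. Podxl, F11r and Lyve1 overlapped between the groups, and Lyve1 was chosen after its values were seen.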
